A study of Homo sapiens with 6 samples.

Results

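The matrix metalloproteinases and tissue inhibitors of metalloproteinases described here are 10 genes: the proteases MMP1, MMP2, MMP3, MMP7, MMP9, MMP10, MMP13 and MMP14 and the inhibitors TIMP2 and TIMP3. They were taken by name, each through the brightest array feature that the platform annotation assigns to that gene alone, and all 10 were found among 18417 genes. Levels were read on 6 single-colour whole-transcript arrays of a human prostate epithelial cell line. The RWPE-1 group held 3 arrays of untreated, immortal cells, at passages 18, 38 and 42. The CAsE-PE group held 3 arrays of the malignant line derived from RWPE-1 by unbroken growth in 5 µM sodium arsenite, after 30, 33.5 and 35 weeks. RWPE-1 is a line from normal adult prostate epithelium immortalised with papillomavirus, and both groups were grown in the same serum-free keratinocyte medium with pituitary extract and epidermal growth factor. The transformed arrays are therefore 1 descendant line sampled at 3 times, and the labels name no untreated cells kept in culture for the same time. Separate cultures are not stated for the arrays of either group, so p-values cover only the spread of these arrays. That spread takes in differences of passage or weeks and technical variation, and is not known to cover variation between separate cultures.

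Matrix metalloproteinases are zinc-dependent endopeptidases that cut collagens, basement membrane proteins and cell-surface proteins. Most are secreted as inactive proenzymes, whereas MMP14 is anchored in the plasma membrane, where it works with TIMP2 as a receptor to activate pro-MMP2. The TIMPs bind the active site and block it, and secreted MMP9 activity is known as a marker of the arsenite-transformed line. The arrays measured RNA, not secreted protein or enzyme activity.

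The values are log2(intensity + 1) for each gene, and a level of one gene cannot be set against that of another, because features differ in probe response. Differences were taken as CAsE-PE minus RWPE-1 on that scale, with the standard error (SE) and 95% interval of a limma fit over all genes. A gene was called at a Benjamini-Hochberg adjusted p under 0.05 over all genes.

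In CAsE-PE, RNA of the membrane protease MMP14 and of the gelatinase MMP2 was lower, and no protease or inhibitor of the 10 was called higher. MMP14 fell 1.78-fold and MMP2 fell 1.53-fold, and the call of MMP2 was lost under 9 of 15 alternatives. Of the 10 genes, 2 were called lower and 0 higher in the limma fit. The same 2 had an unadjusted p under 0.05 in limma, where 3183 of all 18417 genes were lower and 2780 higher at that threshold. Over all genes 8.71% were called lower, 9.04% higher and 17.7% in either direction, so the share of members called was near that of the array as a whole. For 4 of the 10 genes (MMP14, MMP2, MMP7 and MMP10) the arrays of both groups were fully apart, against 38.9% of all genes. The median difference of the 10 was −0.18, beside −0.06 over all genes. With the dimmest 33.3% of genes left out, the median over the rest was −0.011, and 5 of the 10 genes were in that dim part. Whether brightness bears on the median of the 10 was not tested.

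**Figure D1:**
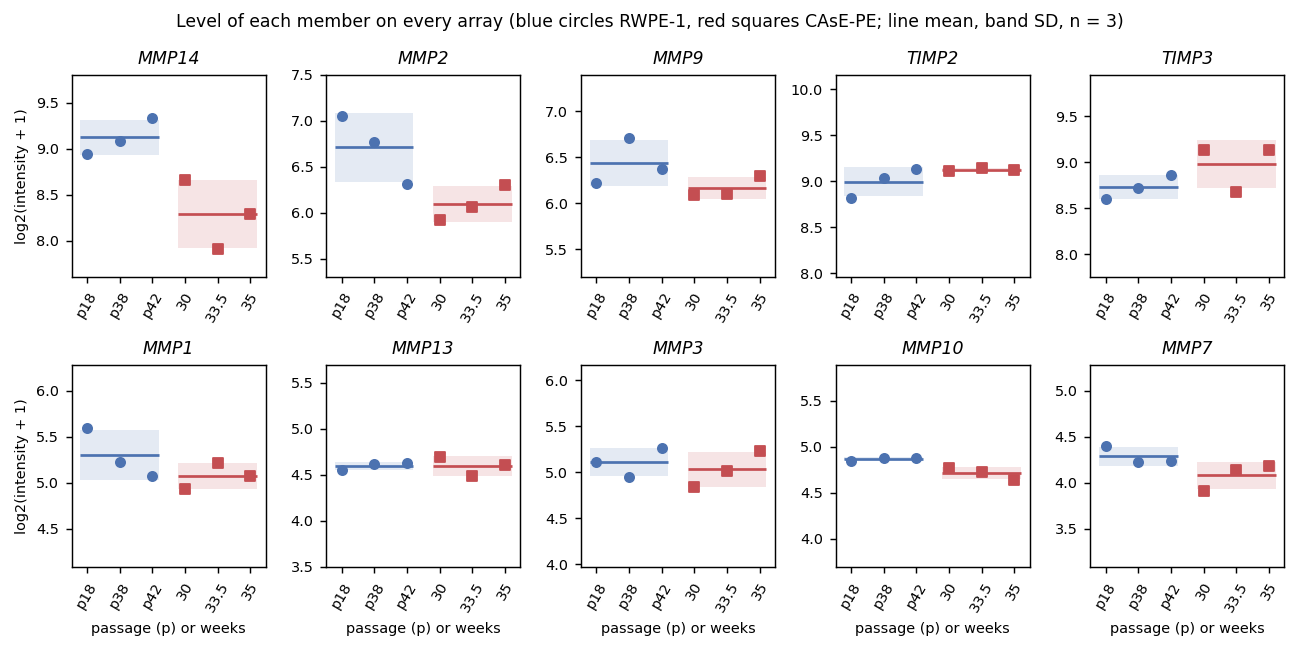
Level of each of the 10 genes on every array, as log2(intensity + 1), with passages of RWPE-1 (blue circles) and weeks of exposure of CAsE-PE (red squares) on the horizontal axis. Every panel spans the same height of the log2 scale, lines are group means and bands are SD (n = 3). MMP14 lies between 8.95 and 9.33 in RWPE-1 and between 7.91 and 8.66 in CAsE-PE.

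The start region of 4 of the 10 genes (MMP7, MMP10, MMP14 and TIMP3) was found in the RefSeq promoter table of GRCh38.p14, which gives 250 bases before and 50 bases after each start. Stretches of MMP14, called lower, and of MMP7 and MMP10, both dim by their mean over the arrays, are shown as examples of the motifs searched. Sequences read 5′ to 3′ on the gene's strand. Capitals mark a GC box (GGGCGG) in MMP14, and an AP-1 motif (TGANTCA) and a TATA box (TATAAA) in MMP7 and MMP10.
MMP14, chr14:22836465-22836604, plus strand: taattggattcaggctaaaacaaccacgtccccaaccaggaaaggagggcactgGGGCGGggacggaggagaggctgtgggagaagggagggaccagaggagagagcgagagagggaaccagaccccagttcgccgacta
MMP7, chr11:102530748-102530827, minus strand: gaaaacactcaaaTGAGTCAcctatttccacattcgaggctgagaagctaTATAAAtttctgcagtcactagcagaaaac
MMP10, chr11:102780629-102780708, minus strand: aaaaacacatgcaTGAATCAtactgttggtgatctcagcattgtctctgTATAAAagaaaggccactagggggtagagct
The search covered both strands of the 300-base windows, and none of the motifs overlap each other in the stretches shown. In MMP7 and in MMP10 the AP-1 motif began 67 bases before the start, and the TATA box began 30 bases before it in MMP7 and 31 in MMP10. The MMP14 window held 1 GC box, beginning 66 bases before the start, and neither of the other motifs. The TIMP3 window held 5 GC boxes. Among other dim MMP genes the MMP20 window held an AP-1 motif and a TATA box. They began 112 and 72 bases before the start, farther than in MMP7 and MMP10. The MMP24 window held 3 GC boxes and neither other motif, and the MMP27 window held none of the motifs. The MMP8, MMP21 and MMP26 windows held no AP-1 motif but a TATA box, beginning 110, 92 and 28 bases before the start. Of 27305 promoter windows, 7.76% held the AP-1 motif, 12.0% the TATA box and 44.6% the GC box. These matches describe letters in the windows and were not tested as binding sites.

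MMP14, also called MT1-MMP, cuts collagen at the cell surface and activates pro-MMP2. Its RWPE-1 levels were 8.95, 9.09 and 9.33 at passages 18, 38 and 42, and its CAsE-PE levels 8.66, 7.91 and 8.29 at 30, 33.5 and 35 weeks. All CAsE-PE arrays lay below all RWPE-1 arrays, with the lowest value at 33.5 weeks. The group means were 9.12 ± 0.19 (SD, n = 3) and 8.29 ± 0.37 (SD, n = 3). The difference was −0.83 (SE 0.18, 95% interval −1.25 to −0.42), with an adjusted p of 0.0140 in limma. With any 1 array left out the call was kept, with adjusted p-values up to 0.0496 and differences between −1.02 and −0.64. Against a null of a 1.5-fold change, MMP14 did not pass (adjusted p = 1).

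MMP2, gelatinase A, degrades type IV collagen and denatured collagen. RWPE-1 levels were 7.06, 6.77 and 6.32 at passages 18, 38 and 42, and CAsE-PE levels 5.92, 6.06 and 6.30 at 30, 33.5 and 35 weeks. The groups did not overlap, but the lowest RWPE-1 value (6.32, passage 42) and the highest CAsE-PE value (6.30, 35 weeks) were nearly equal. The means were 6.71 ± 0.37 (SD, n = 3) and 6.10 ± 0.19 (SD, n = 3), a difference of −0.62 (SE 0.18, 95% interval −1.03 to −0.20, limma adjusted p = 0.0475). The call was lost after quantile normalisation (adjusted p = 0.0844), after centring on array medians (0.0811) and with a pseudocount of 16 (0.0610). It was also lost without the array at passage 18 (−0.45, adjusted p = 0.133), passage 38 (0.139), 30 weeks (0.108), 33.5 weeks (0.109) or 35 weeks (0.0605), and kept without passage 42 (−0.82, adjusted p = 0.00972).

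MMP9, gelatinase B, shares the gelatin and type IV collagen substrates of MMP2. Its level was 6.22, 6.71 and 6.37 at passages 18, 38 and 42, and 6.09, 6.11 and 6.30 at 30, 33.5 and 35 weeks. The groups overlapped, since the 35-week array lay above passage 18. The difference was −0.27 (SE 0.14, 95% interval −0.58 to 0.04, limma adjusted p = 0.214), so the upper bound corresponds to a ratio of 1.03 of CAsE-PE over RWPE-1. The difference was negative under all 15 alternatives tried, from −0.38 to −0.13 (the latter without passage 38), and passed the threshold under none, with a lowest adjusted p of 0.0673 when arrays were weighted.

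**Figure D2:**
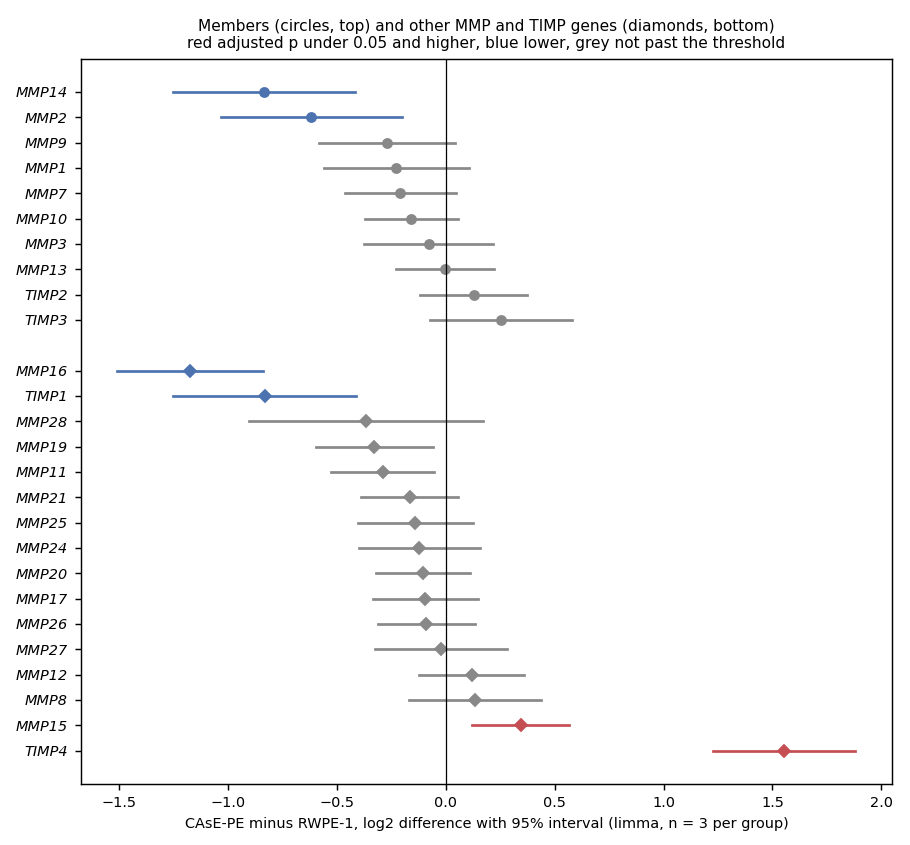
Log2 difference, CAsE-PE minus RWPE-1, with its 95% interval (limma, n = 3 per group) for the 10 genes (circles) and 16 further MMP and TIMP genes (diamonds). Blue marks genes called lower, red genes called higher and grey those not past the threshold. MMP14 (−0.83) and MMP2 (−0.62) are the circles whose intervals lie below 0, and TIMP4 (1.55) is the diamond farthest to the right.

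The collagenases MMP1 and MMP13, which cut fibrillar collagen, did not pass the threshold. MMP1 was 5.60, 5.22 and 5.07 at passages 18, 38 and 42 and 4.93, 5.21 and 5.07 at 30, 33.5 and 35 weeks. The value at passage 18 stood above all others and the remaining arrays overlapped, with a difference of −0.23 (95% interval −0.56 to 0.11, limma adjusted p = 0.319). Without passage 18 it was −0.076. MMP13 lay between 4.49 and 4.69 on all 6 arrays and differed by −0.004 (95% interval −0.23 to 0.22). The direction of MMP13 turned after quantile normalisation and after centring on array medians.

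The stromelysins MMP3 and MMP10, which cut proteoglycans and activate other proenzymes, and the small protease matrilysin, MMP7, did not pass either. MMP10 was 4.85, 4.88 and 4.88 at passages 18, 38 and 42 and 4.77, 4.73 and 4.64 at 30, 33.5 and 35 weeks. Its groups did not overlap, yet the difference of −0.16 (95% interval −0.37 to 0.06) had a limma adjusted p of 0.281. MMP7 was 4.40, 4.22 and 4.24 in RWPE-1 and 3.91, 4.14 and 4.19 in CAsE-PE, in the same order of arrays. Again without overlap, MMP7 differed by −0.21 (95% interval −0.46 to 0.05, limma adjusted p = 0.236), or by −0.13 without the 30-week array. MMP3 lay between 4.84 and 5.26 and differed by −0.08 (95% interval −0.37 to 0.22), with overlapping groups. MMP1, MMP3 and MMP10 are similar in sequence, so cross-hybridisation between their features was not tested.

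These 5 genes, MMP1, MMP3, MMP7, MMP10 and MMP13, were all in the dimmest 33.3% of genes by mean over the arrays, where no detection call was at hand to tell a low level from background. The bound was a mean level of 6.25, and the other 5 were brighter. MMP2 and MMP9 stood above it through RWPE-1, since their CAsE-PE means (6.10 and 6.17) lay below it. The bound marks a share of genes and is not a detection limit. Without a detection call, these CAsE-PE levels cannot be told from background. For the dim genes the result is a difference that was not detectable on these arrays, not an absence of one.

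The inhibitor TIMP2, which also takes part in pro-MMP2 activation, was 8.82, 9.03 and 9.13 at passages 18, 38 and 42 and 9.11, 9.14 and 9.12 at 30, 33.5 and 35 weeks. The 3 CAsE-PE arrays were close together (SD 0.01) and the RWPE-1 array at passage 42 lay among them. The difference was 0.13 (SE 0.11, 95% interval −0.12 to 0.37, limma adjusted p = 0.442), so a fall of TIMP2 as large as that of MMP14 lies outside its interval. Without passage 18 the difference was 0.041, and without passage 42 it was 0.20.

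TIMP3, an inhibitor held in the matrix, was 8.60, 8.72 and 8.86 at passages 18, 38 and 42 and 9.14, 8.68 and 9.13 at 30, 33.5 and 35 weeks. The arrays at 30 and 35 weeks lay above all RWPE-1 arrays, while the array at 33.5 weeks fell between passages 18 and 38. The difference was 0.25 (95% interval −0.07 to 0.58, limma adjusted p = 0.254), or 0.41 without the 33.5-week array (adjusted p = 0.0666). TIMP3 was the only gene of the 10 with a second feature of its own. On that dimmer feature the RWPE-1 values were 6.12, 5.38 and 5.78 and the CAsE-PE values 7.05, 6.01 and 6.74, a difference of 0.84 (SE 0.26, adjusted p = 0.0560 over all features with 1 symbol). The groups overlapped there through passage 18 and 33.5 weeks. The mean of both features gave 0.55 (adjusted p = 0.0747).

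Within RWPE-1, MMP2 and MMP1 had their highest value at passage 18 and their lowest at passage 42. The fitted slope of MMP2 was −0.026 per passage (SE 0.0085) and that of MMP1 −0.021 per passage (SE 0.0075), and neither passed in the limma trend model (adjusted p = 0.804 and 0.813). For MMP14 it was 0.013 per passage (SE 0.010, adjusted p = 0.879). No gene of the 10 was called for passage (0 of 10 in limma, 2 with an unadjusted p under 0.05, MMP1 and MMP2), where 0.0217% of all genes were called. None was called for weeks within CAsE-PE (0 of 10, and 0 at an unadjusted p under 0.05), where 0.25% of all genes were called. The slope over passages and the group difference of MMP2 have the same sign, whereas its slope over weeks was positive (0.069 per week, SE 0.042). The labels state no passage for CAsE-PE and name no untreated cells kept in culture for the same time. Time in culture and exposure therefore cannot be told apart for any of the genes, MMP14 included. In bulk RNA, fewer cells with the transcript and less transcript per cell cannot be told apart either.

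Among the other MMP and TIMP genes, the inhibitor TIMP4 rose and the inhibitor TIMP1 fell. TIMP4 was 6.46, 6.58 and 6.54 at passages 18, 38 and 42 and 7.74, 8.26 and 8.24 at 30, 33.5 and 35 weeks, a gap wider than the spread of either group. Its difference was 1.55 (SE 0.15, limma adjusted p = 0.000175), 2.93-fold, and it also passed against a null of a 1.5-fold change (adjusted p = 0.00442). TIMP1, known to bind pro-MMP9, was 12.02, 12.01 and 11.67 in RWPE-1 and 10.66, 11.40 and 11.15 in CAsE-PE, in the same order. TIMP1 fell 1.78-fold (−0.83, SE 0.19, limma adjusted p = 0.0147), a call lost without passage 18 (adjusted p = 0.0508) or passage 38 (0.0639) and against the 1.5-fold null (1).

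The 4 TIMP genes therefore held 1 rise (25%, beside 9.04% of all genes), 1 fall (25%, beside 8.71%) and 2 without a call. Of the 4, TIMP4 alone was called higher under every alternative tried. The differences of TIMP2 (0.041 to 0.197) and TIMP3 (0.177 to 0.548) were also positive under all 15 alternatives, without a call.

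The membrane-type proteases MMP15 and MMP16 were called in opposite directions. MMP16, related to MMP14, was 5.84, 6.01 and 5.72 at passages 18, 38 and 42 and 4.80, 4.88 and 4.38 at 30, 33.5 and 35 weeks. It fell 2.25-fold (−1.17, SE 0.15, limma adjusted p = 0.000879), and its second feature fell as well (−0.59, adjusted p = 0.0364), though both are dim and MMP16 did not pass against the 1.5-fold null (0.0712). MMP15 was higher by 0.35 (SE 0.10, adjusted p = 0.0400), a call lost against that null (1) and without passage 18 (adjusted p = 0.107), passage 38 (0.155), 30 weeks (0.0531), 33.5 weeks (0.118) or 35 weeks (0.0974). Over all 22 measured MMP genes, 3 were lower (13.6%, beside 8.71% of all genes), 1 higher (4.55%, beside 9.04%) and 18 without a call. Of the 22 differences 19 were negative, where 10950 of 18417 genes had a negative difference. However, 14 of the 22 were in the dimmest 33.3% of genes. The median difference over all genes was −0.062, and −0.011 with that dim part left out, so the 2 counts are not matched for brightness. The MMP list lacked MMP23B, which shares its feature with another symbol.

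**Figure D3:**
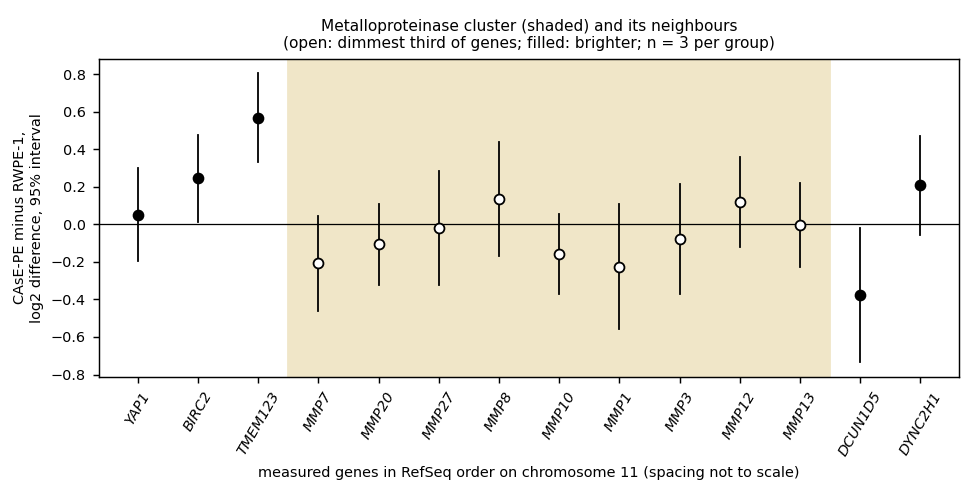
Log2 difference, CAsE-PE minus RWPE-1, with its 95% interval for measured genes around the metalloproteinase cluster, placed in the order of the RefSeq table on chromosome 11 (spacing not to scale). Open circles are genes in the dimmest 33.3% and filled circles brighter genes. All 9 MMP genes of the shaded cluster have intervals that include 0, and TMEM123 (0.57) is the gene called higher.

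Of the 10 genes, MMP1, MMP3, MMP7, MMP10 and MMP13 lie in a cluster on chromosome 11 with MMP8, MMP12, MMP20 and MMP27. None of these 9 genes was called (0 higher and 0 lower in limma, beside 9.04% and 8.71% of all genes). None had an unadjusted p under 0.05, where 2780 of all 18417 genes were higher and 3183 lower. All 9 were in the dimmest 33.3%, and their differences ran from −0.23 to 0.13. Between YAP1 and DYNC2H1, the 5 other measured genes were all brighter than that bound. Of these, TMEM123, next to MMP7 in gene order, was higher by 0.57 (SE 0.10, limma adjusted p = 0.00565) and the other 4 were not called. Among all genes brighter than the bound, 22% were called in either direction. Outside the cluster, the 24 nearest measured genes had a median difference of −0.02 around MMP14, 0.11 around MMP2 and 0.03 around MMP9.

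By Pearson's r of log2 values over the 6 arrays, the genes most like MMP14 were INPP1 (r = 0.998), PELI1 (0.994) and PCGF2 (0.991). These arrays share the group difference, so the likeness is a description. Of the 3, PELI1 was called lower (−0.54, adjusted p = 0.0346, lost without passage 18, 38 or 42 and without 33.5 or 35 weeks, up to 0.109), while INPP1 differed by −0.37 (adjusted p = 0.0599) and PCGF2 by −0.17 (0.259).

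Genes that act with the metalloproteinases were described from 6 lists, of which the other MMP and TIMP genes were the first. Over the 6 lists 144 of 155 genes were measured, 37 fell and 7 rose, with a median difference of −0.18. The share lower was 25.7%, where 8.71% of all genes were lower, and the share higher 4.86%, where 9.04% were higher. Without passage 18 or passage 38, 3 rose. Against a null of a 1.5-fold change 12 were lower and 1 higher, TIMP4. These lists were assembled with earlier results of these data known, so the counts are descriptions. Of the falls named from these lists, some had a CAsE-PE mean below the bound of 6.25. They were TFPI2 (4.99), THBS2 (5.99), PCSK5 (5.54), ADAMTS1 (5.74), ADAMTS6 (5.13), FLI1 (5.60), VCAN (5.33) and ADAM19. Without a detection call these levels cannot be told from background, so the differences of these genes may be understated.

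**Figure D4:**
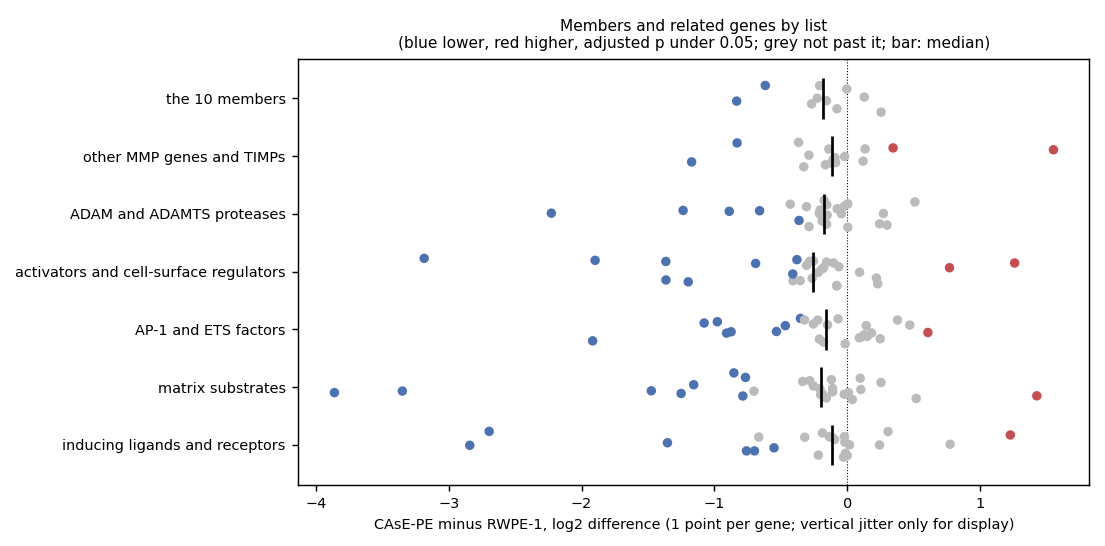
Log2 difference, CAsE-PE minus RWPE-1, for each of the 10 genes and for each measured gene of the 6 lists of related genes, 1 point per gene, with the list's median as a bar. Blue and red points are genes called lower and higher, grey points are not past the threshold, and the vertical scatter is for display. The 10 genes span −0.83 to 0.25, and SPARC (−3.86) and VCAN (−3.35) are the lowest points of the matrix substrates.

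The sister protease families ADAM and ADAMTS held 5 falls and 0 rises among 25 measured genes (20% and 0%, beside 8.71% and 9.04% of all genes). ADAMTS1, a protease of the proteoglycan versican, fell by 2.23 on the log2 scale (SE 0.13, limma adjusted p = 1.26e-05), ADAM19 fell by 1.24 (SE 0.25) and ADAMTS6 fell by 0.89 (SE 0.14). At an unadjusted p under 0.05, 4 genes of this list were higher and 6 lower, where 2780 and 3183 of all 18417 genes were. Without the 35-week array, 1 gene of the list was called higher. Without passage 38 or 35 weeks, 3 fell. Of 27 activators and cell-surface regulators, 8 fell (29.6%, beside 8.71% of all genes) and 2 rose (7.41%, beside 9.04%). TFPI2, an inhibitor of serine proteases that activate proenzymes, fell by 3.19 (SE 0.35), THBS2, a matrix protein that binds MMP2, fell by 1.90 (SE 0.13), and PCSK5, a proprotein convertase, fell by 1.37 (SE 0.12). PLAT, tissue plasminogen activator, rose by 1.26 (SE 0.30), a call lost without passage 42 (adjusted p = 0.0698). LCN2, a protein that forms a complex with MMP9, rose by 0.77 (SE 0.19), lost without passage 18 (0.0679) or passage 38 (0.0546). RECK, a membrane-anchored inhibitor of MMP2, MMP9 and MMP14, differed by −0.16 (SE 0.12, adjusted p = 0.410), and FURIN, which can activate pro-MMP14, by 0.23 (SE 0.10, adjusted p = 0.157), both chosen after their values were seen.

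Of 26 AP-1, ETS and other transcription factors, 8 fell (30.8%, beside 8.71% of all genes) and 1 rose (3.85%, beside 9.04%). The group includes known regulators of MMP promoters. FLI1, an ETS factor, fell by 1.92 (SE 0.22), RUNX2, known to act on the MMP13 promoter, fell by 1.08 (SE 0.10), and JUN, a subunit of AP-1, fell by 0.98 (SE 0.17). ETV5, an ETS factor downstream of growth factor signalling, rose by 0.61 (SE 0.10). Leaving out passage 38 left 5 falls in this list, and leaving out passage 42 gave 2 rises.

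Of 27 matrix genes, 8 fell (29.6%, beside 8.71% of all genes) and 1 rose (3.7%, beside 9.04%). SPARC fell by 3.86 (SE 0.12), the proteoglycan VCAN fell by 3.35 (SE 0.24) and LAMB3, a laminin chain of the epithelial basement membrane, fell by 1.48 (SE 0.15). The proteoglycan BGN was higher by 1.43 (SE 0.40, adjusted p = 0.0374), a call lost without passage 18 (adjusted p = 0.0853), passage 38 (0.122), passage 42 (0.0712) or 35 weeks (0.0886), after quantile normalisation (0.0520), with a pseudocount of 16 (0.0543) and with a trended robust prior (0.0690). Without the 30-week array BGN was higher by 0.91 (adjusted p = 0.0290). Of 23 ligands and receptors that can induce MMP genes, 6 fell (26.1%, beside 8.71% of all genes) and 1 rose (4.35%, beside 9.04%). TGFB2 fell by 2.84 (SE 0.14), IL1B fell by 2.70 (SE 0.27) and IL1A fell by 1.35 (SE 0.25). VEGFA rose by 1.23 (SE 0.28), lost without passage 18 (adjusted p = 0.0568) or passage 38 (0.0663), and leaving out passage 42 gave 2 rises.

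The epithelial identity of the line was checked on marker genes. The keratin genes KRT5, KRT8 and KRT18 did not pass the threshold (differences of −0.12, 0.09 and 0.04), while the basal genes KRT14 (−1.60), KRT15 (−1.77) and LAMB3 fell, 3 of 5 measured. The prostate antigen gene KLK3 was in the dimmest 33.3% of genes. Fibroblasts are a common source of MMP2 and MMP14. Of 8 fibroblast markers 1 fell, PDGFRB (−0.32, adjusted p = 0.0479), 7 were in the dimmest 33.3%, and the summed intensity of the list was 525 to 550 in RWPE-1 and 517 to 538 in CAsE-PE. Leukocytes are a common source of MMP9. Of 6 leukocyte markers 2 fell, CD68 (−0.89) and CD14 (−0.43), and the list summed to 1309 to 1584 in RWPE-1 and 747 to 1043 in CAsE-PE. CD68 was the only one of the 6 brighter than the bound, and without it the other 5 summed to 267 to 280 in RWPE-1 and 213 to 244 in CAsE-PE. The defining leukocyte gene PTPRC was in the dimmest 33.3% and did not pass (−0.15, adjusted p = 0.341). Of 4 endothelial markers none passed (0 in limma and 0 at an unadjusted p under 0.05), and the list summed to 195 to 224 and 179 to 199. The share called lower was 60% of measured basal, 12.5% of fibroblast and 33.3% of leukocyte markers, beside 8.71% of all genes. No feature is at 0 on this scale. The part of these cell types in the MMP values was not tested.

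Over the array as a whole, median intensities were 93.3 to 97.2 in RWPE-1 and 91.7 to 92.3 in CAsE-PE, with the groups fully apart. After centring on these medians MMP14 differed by −0.79 and MMP2 by −0.57 (adjusted p = 0.0811). Log2 values correlated at 0.985 to 0.995 within a group and 0.957 to 0.969 between groups. Precision is limited by the small number of arrays.

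**Figure D5:**
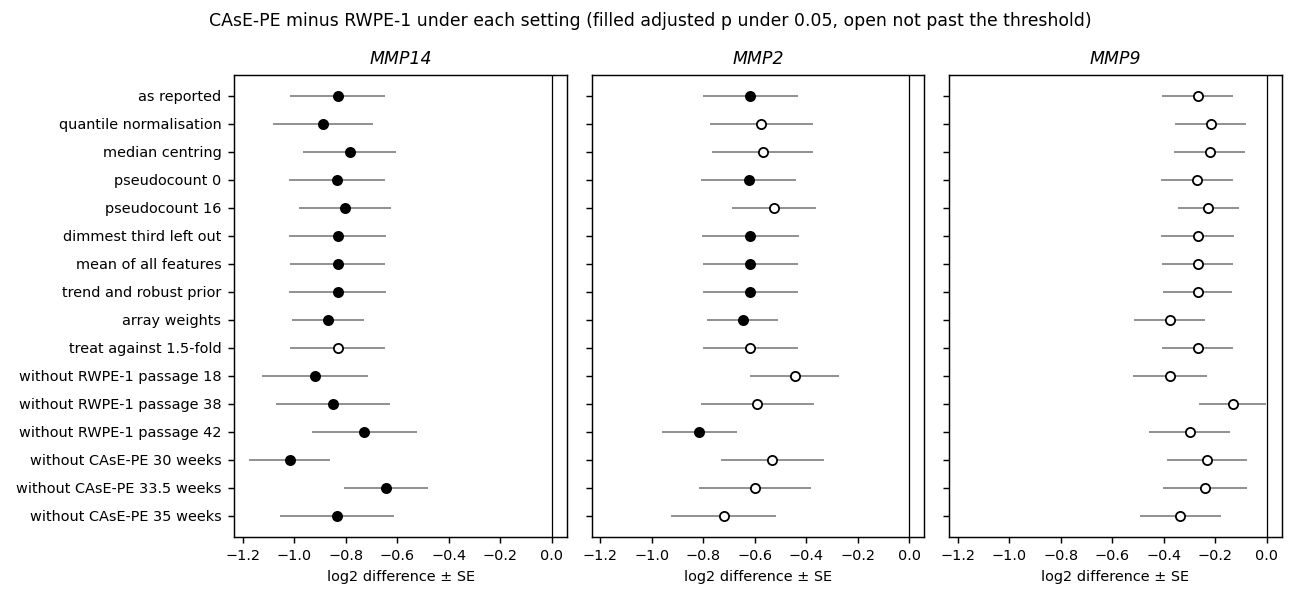
Log2 difference ± SE, CAsE-PE minus RWPE-1, of MMP14, MMP2 and MMP9 as reported and under each of 15 alternatives. Filled points have an adjusted p under 0.05. MMP14 is filled in all but the test against a 1.5-fold change, MMP2 is filled in 7 of 16, and MMP9 is open throughout.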

How the data were processed

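Gene expression was measured on 6 arrays, 3 of RWPE-1 and 3 of CAsE-PE. The authors deposited intensities for 33252 features, all positive and judged linear from their range. The sources used here do not give the background correction, summarisation or normalisation. The platform annotation gave 1 symbol for 19460 features, several for 1754 and listed none for 12038. Each of 18417 genes was represented by its feature with the highest mean log2 value. Values were analysed as log2(value + 1), which understates changes of dim genes, with limma 3.58.1 in R 4.3.3 (lmFit, eBayes, two-sided, 4 residual degrees of freedom). Trends with passage and weeks used a model with the group and 2 residual degrees of freedom. The fits were tested on simulated data. Promoter motifs were searched in Python 3.11.15 and figures drawn with matplotlib 3.10.9. Gene order and chromosomes came from the RefSeq table of GRCh38.p14, and the coordinates of the promoter windows from the RefSeq promoter table of that build.

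The members, the lists of related genes and the markers were chosen with earlier results of these data known. Named genes were the 10 members, the other MMP and TIMP genes, up to 3 rises and 3 falls of each list, called and with both groups fully apart, the genes from YAP1 to DYNC2H1, and the 3 genes most correlated with the called member of largest difference. Alternatives were pseudocounts of 0 and 16, quantile normalisation, median centring, leaving out the dimmest 33.3% of genes, the mean of all features, a trended robust prior, a null of a 1.5-fold change, array weights, and each array left out in turn. The replicate numbers only name the arrays.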

Additional observations from a re-analysis of the deposited data

How the results depend on the processing

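No gene of the 10 was called higher under any alternative. The count of members lower, 2 as reported, was 1 after quantile normalisation, after centring and with a pseudocount of 16, 0 in the test against a 1.5-fold change, and 1 to 2 with 1 array left out. Each loss except that to 0 was the call of MMP2. Of all genes, 1665 were higher and 1604 lower, against 1989 and 1340 after centring and 1520 and 1700 after quantile normalisation, where the order turned. Array weights gave 2596 and 2746, the 1.5-fold test 126 and 230, and arrays left out in turn 949 to 1665 higher and 939 to 1519 lower. Related genes numbered 7 higher, or 11 with array weights, 1 in the 1.5-fold test and 3 to 7 with 1 array left out. Lower ones numbered 37, or 12 in the 1.5-fold test, and 27 to 36 with 1 array left out. The cause of these shifts was not tested, except that fewer arrays and a stricter null leave less power by construction.

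Uncalled genes near 0 changed sign. MMP13 was 0.0086 after quantile normalisation, 0.043 after centring and −0.053 to 0.050 with 1 array left out. MMP3 was 0.074 with array weights and −0.18 to 0.015 with 1 array left out. MMP24 was 0.014 with array weights. MMP27 was 0.027 after centring and 0.027 with array weights, and −0.14 to 0.12 with 1 array left out, and MMP8 was −0.0059 to 0.23. No paired analysis was possible because the replicate numbers were given in accession order and pair nothing. The low signal of 5 of the 10 genes and the number of arrays limit what can be seen. No trend of the 10 genes was called after quantile normalisation or without the dimmest 33.3% (0 for passage and 0 for weeks).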
